A study of Mesocricetus auratus with 24 samples.

Results

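The strain by sound interaction in the inferior colliculus (IC) is the subject here, that is, whether the transcriptional response to a loud sound differed between GASH/Sal hamsters and control Syrian hamsters. For each gene the response of a strain is the mean of its stimulated animals minus the mean of its naïve animals on the log2 scale, and the difference of responses is the GASH/Sal response minus the Syrian response. A value above 0 therefore means a higher stimulated minus naïve difference in GASH/Sal, and 1 unit is a 2-fold change. All 24 of the 24 arrays of the series entered it, 6 in each of 4 groups, and the difference was estimated for 19938 genes. Each strain, the control Syrian hamster and GASH/Sal, had a naïve and a stimulated group, assigned from the sample titles. All animals were 16 weeks old and weighed about 60 g. Stimulated animals heard the sound and their IC was taken 60 min later, whereas naïve animals received no sound. The labels name no drug, transgene or mutant allele for any group. The model is limited in that GASH/Sal is a line derived from Syrian hamsters, so that the strain stands for every inherited difference between the lines and their breeding. Stimulated GASH/Sal animals were described as sampled after seizures, so that hearing the sound and having a seizure cannot be told apart in them. Hamster RNA was hybridised to a mouse whole-transcript array, so that a gene whose hamster sequence departs from the mouse probes gives a dim signal. The signal of one probe set cannot be set against that of another.

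GASH/Sal hamsters are a genetic model of reflex epilepsy in which intense sound elicits generalised convulsions, and the IC, the main auditory relay of the midbrain, is where these audiogenic seizures start. Neuronal firing raises calcium and activates kinases that act on factors already present in the cell, and these switch on immediate-early genes within minutes. The induced factors of the EGR, AP-1 and NR4A families then control effectors such as growth factors, synaptic scaffolds and phosphatases that dampen the signal. Sound alone can drive such genes in auditory neurons, and for this reason a strain difference in the response is a separate question from the response itself.

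Before the results, 2 arrays stood apart from the rest. Over the 19938 genes tested the stimulated Syrian replicate 4 had a median correlation of 0.969 with the other arrays. The naïve GASH/Sal replicate 6 had 0.971, and the remaining 22 arrays had 0.980 to 0.989. Values without this pair are therefore given beside the results. The labels name the animals in 2 styles, here called label series A (replicates 1 to 3 of every group) and label series B (replicates 4 to 6), and the series was a term in the fit. Both arrays that stood apart belong to series B.

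No gene differed between the strains in its response to sound after adjustment. Of 19938 genes, 0 (0%) passed an adjusted p of 0.05 in limma's moderated test with Benjamini-Hochberg adjustment, and the lowest adjusted p was 0.99995. The count at an unadjusted p under 0.05 was 734 genes (3.68% of all tested), against 996.9 if p-values were uniform. Of these, 349 had a higher response in GASH/Sal (1.75%) and 385 a lower response (1.93%). Without the 2 arrays that stood apart the adjusted count was again 0, with a lowest adjusted p of 0.744, while the unadjusted count was 1290 (6.47%). In the p-value histogram the lowest bar was that of the smallest p-values.

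**Figure D1:**
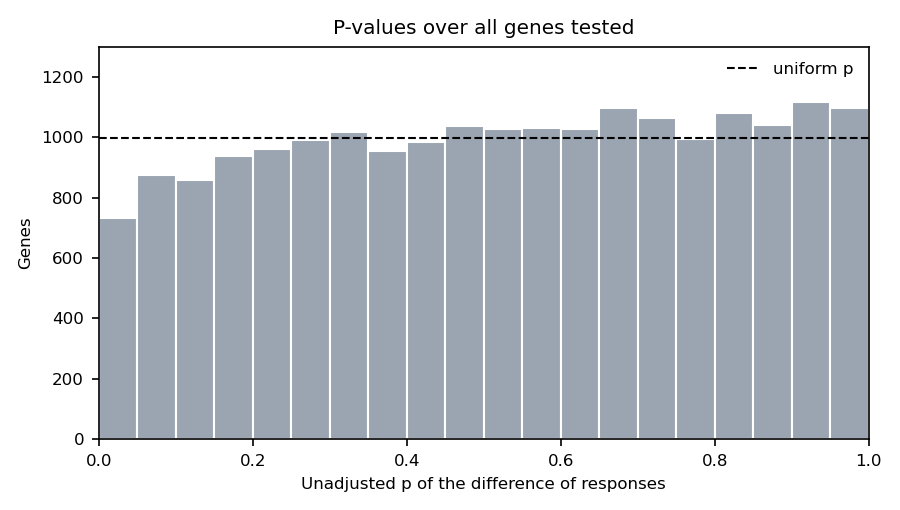
Histogram of the unadjusted p-values of the difference of responses for 19938 genes, in bins of 0.05 (x axis: p, y axis: number of genes), with the dashed line at 996.9 genes per bin for uniform p-values. The first bin holds 734 genes and the last 1099, so small p-values were fewer than the line.

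The size of the differences in array signal was limited as well as their significance. No gene reached a 2-fold difference at an unadjusted p of at most 0.05 (0 genes), and 10 genes reached 1.5-fold, 4 higher in GASH/Sal (0.0201%) and 6 lower (0.0301%). The median standard error of a gene was 0.13 on the log2 scale, and the 95% interval of a gene reached, at the median, 0.26 to either side of its estimate, or 1.20-fold. The intervals of 96.1% of genes excluded a 1.5-fold difference in either direction and those of 99.9% excluded a 2-fold difference. These are intervals of array signal, dim genes included, and how far they bound differences in RNA was not tested. To pass the adjusted threshold alone, a gene of median standard error would have needed a difference of 0.73, or 1.66-fold. Genes of smaller standard error would have needed less.

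The zinc-finger factors of the EGR family, which bind GC-rich promoter sites shortly after neuronal activity, had the highest differences of any group of induced factors. All 4 members lay above 0, with a median of 0.37, beside a median of -0.003 and 49.0% of genes above 0 over all genes tested. The unadjusted p was under 0.05 for 1 of the 4, Egr4, against 1.75% of all genes in that direction. None passed adjustment. The study describes earlier work on mouse arrays that identified Egr3 in GASH/Sal, with Egr1, Egr2 and Egr3 overexpressed in the IC. The list was drawn up with earlier results of these data known, so the family's rank beside all genes is no independent test.

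Egr4 (probe set 10545859) had a log2 signal from 5.74 to 6.17 with a median of 5.86 in naïve Syrian animals, and from 5.26 to 6.21 with a median of 5.87 in stimulated ones. In GASH/Sal it ranged from 5.63 to 5.79 (median 5.73) in naïve and from 5.91 to 6.54 (median 6.08) in stimulated animals. The 6 stimulated GASH/Sal arrays all lay above the 6 naïve GASH/Sal arrays, whereas the Syrian groups overlapped widely. The difference of responses was 0.47 (SE 0.16, 95% interval 0.14 to 0.80, unadjusted limma p 0.00725). Stimulated GASH/Sal replicate 4 was the highest array and stimulated Syrian replicate 4, which stood apart, the lowest. The difference was 0.35 without the 2 arrays that stood apart, with an unadjusted p of 0.015. It was 0.17 in series A and 0.77 in series B.

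Egr2 (probe set 10363735), an EGR factor also known for hindbrain patterning and myelination, had the next highest value among the 20 genes fixed by name. Its log2 signal ran from 5.15 to 5.35 (median 5.23) in naïve Syrian, from 5.11 to 6.42 (median 5.36) in stimulated Syrian, from 5.04 to 5.70 (median 5.27) in naïve GASH/Sal and from 5.25 to 6.45 (median 6.22) in stimulated GASH/Sal animals. Stimulated GASH/Sal replicates 1, 3, 4 and 5 lay between 6.05 and 6.45, and replicates 2 and 6 within the naïve range. Of the stimulated Syrian animals, replicate 2 reached 6.42 and the other 5 lay between 5.11 and 5.46. The difference was 0.44 (SE 0.26, 95% interval -0.09 to 0.97, unadjusted p 0.0985), an interval that holds both 0 and nearly a doubling. Without that Syrian replicate 2 it was 0.64, and without stimulated GASH/Sal replicate 3 it was 0.35.

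Egr3 (probe set 10416251), a target of calcium signalling through the MAP kinase pathway, differed by 0.30 (SE 0.18, 95% interval -0.06 to 0.67, unadjusted p 0.103). Its signal was 6.60 to 6.88 in naïve Syrian (median 6.79), 6.56 to 7.24 in stimulated Syrian (median 6.67), 6.26 to 6.89 in naïve GASH/Sal (median 6.75) and 6.45 to 7.44 in stimulated GASH/Sal animals (median 7.04). The highest Syrian array was again stimulated replicate 2 and the lowest stimulated GASH/Sal array again replicate 2, and all groups overlapped. Egr3 was similar in the label series (0.28 in A, 0.33 in B). Egr1, the most studied member, differed by 0.11 (95% interval -0.28 to 0.49), with 0.24 in series A and -0.03 in series B.

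**Figure D2:**
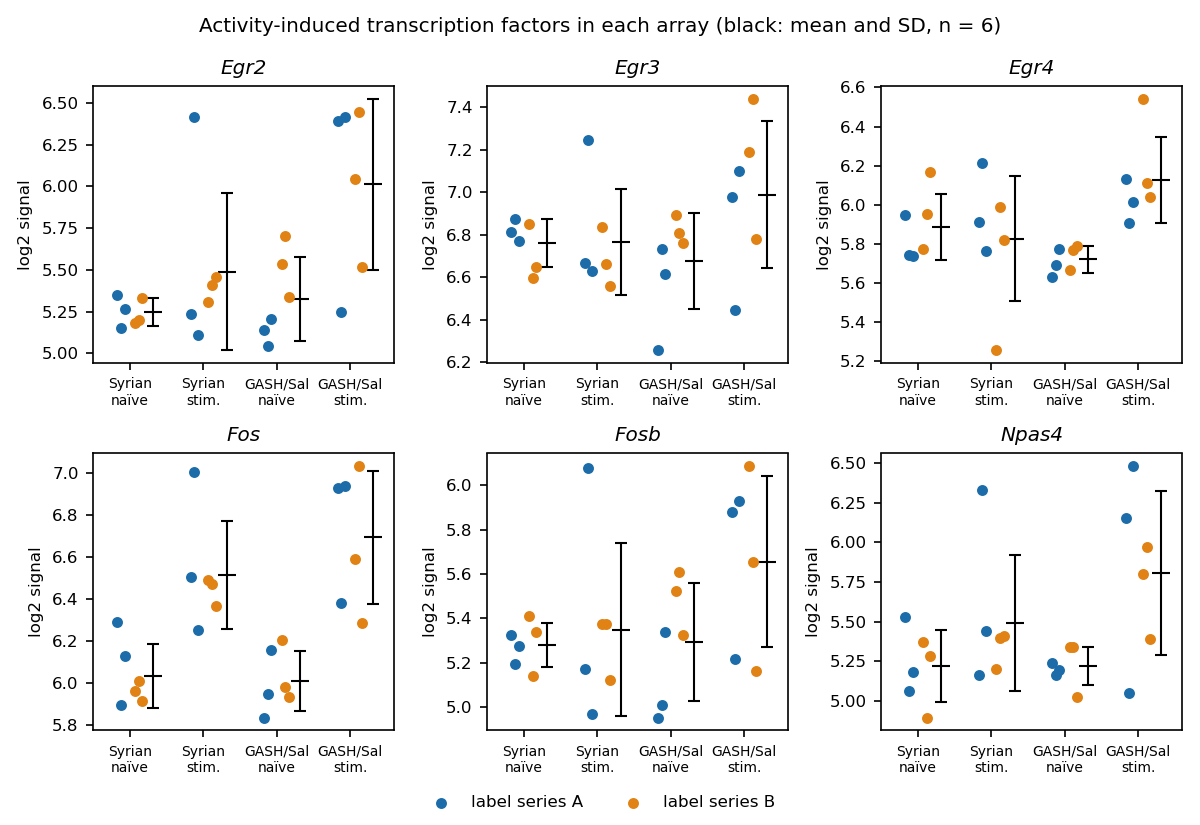
Log2 signal of Egr2, Egr3, Egr4, Fos, Fosb and Npas4 in each of the 24 arrays (y axis), by group (x axis). Blue points are label series A and orange points series B, and the black dash and bar are the mean and SD of 6 arrays. In stimulated Syrian animals 1 array, replicate 2, is the highest for all 6 genes, for example 6.42 for Egr2, and stimulated GASH/Sal arrays spread from 5.25 to 6.45 for Egr2.

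The AP-1 subunits, which pair as Fos and Jun dimers, also lay on the higher side of 0 in 7 of 7 members with a median of 0.13. Over all arrays 0 of 7 reached an unadjusted p of 0.05. The median was 0.29 in series A and 0.04 in series B, and 4 of 7 lay above 0 in both series. Without the 2 arrays that stood apart, Jund, named after its value was seen, was at 0.29 (unadjusted limma p 0.0124). Over all arrays Fosb was the highest, at 0.29 (SE 0.22, 95% interval -0.15 to 0.74), followed by Fos at 0.20 (95% interval -0.14 to 0.54). Jun was the lowest, at 0.02 (95% interval -0.38 to 0.41), and Junb stood at 0.13 (95% interval -0.15 to 0.40). Of these, Junb was 0.34 in series A and -0.08 in series B. The Fos signal ran from 5.89 to 6.29 in naïve Syrian (median 5.99), 6.25 to 7.00 in stimulated Syrian (median 6.48), 5.84 to 6.20 in naïve GASH/Sal (median 5.97) and 6.29 to 7.03 in stimulated GASH/Sal animals (median 6.76). In both strains nearly every stimulated array lay above the naïve arrays, and the stimulated ranges of the strains overlapped almost fully.

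Npas4, a factor induced by calcium entry that organises inhibitory synapses, differed by 0.32 (SE 0.25, 95% interval -0.19 to 0.83, unadjusted p 0.206). Its signal was 4.89 to 5.53 in naïve Syrian (median 5.23), 5.16 to 6.33 in stimulated Syrian (median 5.40), 5.02 to 5.34 in naïve GASH/Sal (median 5.22) and 5.05 to 6.48 in stimulated GASH/Sal animals (median 5.89). The values of the label series were 0.31 and 0.33. As for Egr2, stimulated Syrian replicate 2 was the high array of its group. Without this array the difference was 0.48 for Npas4, 0.45 for Fosb and 0.29 for Fos. The lowest values when 1 array was left out each lacked a stimulated GASH/Sal array. They were 0.19 for Npas4 (without replicate 3), 0.21 for Fosb (without replicate 4) and 0.12 for Fos (without replicate 5). For Npas4 the highest value, 0.49, also lacked a stimulated GASH/Sal array, replicate 2.

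The orphan nuclear receptors of the NR4A family, which act without a known ligand, lay above 0 over all arrays but not in every setting. Nr4a1 differed by 0.06 (95% interval -0.31 to 0.44), Nr4a2 by 0.05 (-0.18 to 0.29) and Nr4a3 by 0.12 (-0.12 to 0.36). In series B, Nr4a1 was -0.04 and Nr4a3 -0.05, and Nr4a1 was -0.02 without the 2 arrays that stood apart. Of the 17 other induced factors, 10 lay above 0. Klf4, a zinc-finger factor of the Krüppel family, was the one at an unadjusted p under 0.05, with 0.31 (SE 0.15, unadjusted p 0.0462), which became 0.38 without the 2 arrays that stood apart. The lowest of the 31 factors was Nfil3, a basic leucine zipper repressor, at -0.14, named for its place in the list after the values were seen.

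Over the whole list of 31 immediate-early factors 24 lay above 0 with a median of 0.10, and 2 were at an unadjusted p under 0.05, both higher in GASH/Sal (1.75% of all genes), with 0 lower (1.93% of all genes). The median was 0.22 in series A and 0.02 in series B. Without the 2 arrays that stood apart it was 0.15, with 25 of 31 above 0 (53.4% of all genes) and 4 of 31 at an unadjusted p under 0.05, all higher in GASH/Sal (3.58% of all genes). The mean signal of the list in an array was 5.34 to 5.41 in naïve Syrian, 5.40 to 5.70 in stimulated Syrian, 5.22 to 5.45 in naïve GASH/Sal and 5.39 to 5.65 in stimulated GASH/Sal animals. The stimulated ranges overlapped almost wholly, and the highest single array was a Syrian one. These genes are often induced together, so their number is no count of independent observations. In whole tissue, more cells with an induced gene and more RNA per cell cannot be told apart.

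**Figure D3:**
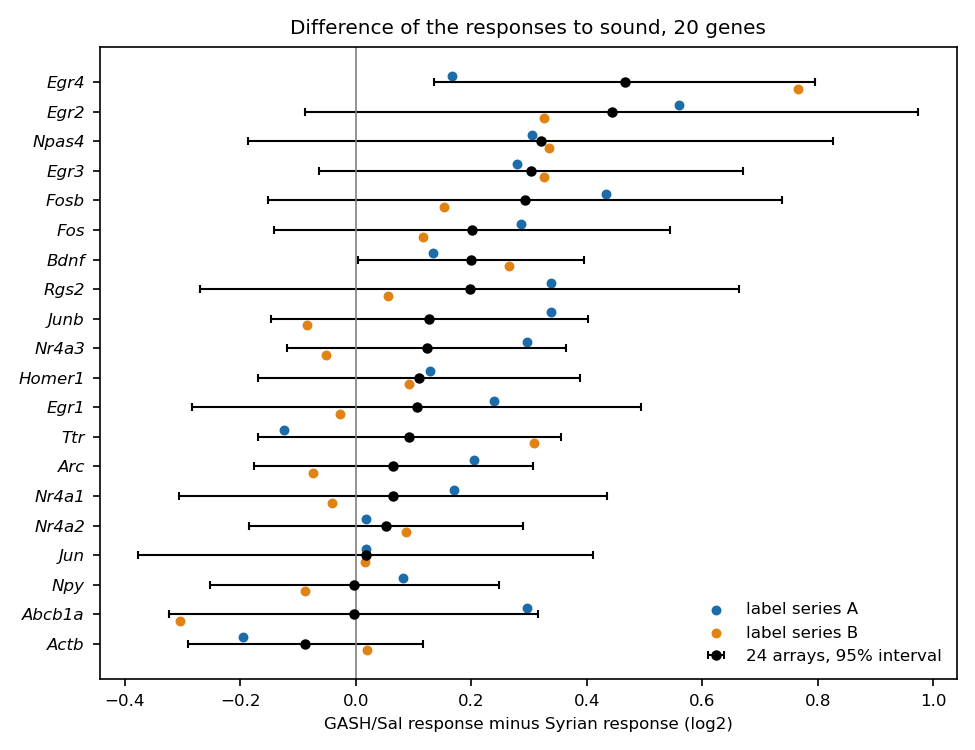
Difference of responses (GASH/Sal response minus Syrian response, log2, x axis) for 20 genes (y axis), with black points and bars for the estimate and 95% interval from 24 arrays, blue points for label series A and orange points for series B. The intervals of Egr4 (0.14 to 0.80) and Bdnf lie above 0 and those of the other 18 genes include it.

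Among the 41 activity-regulated effectors 27 lay above 0, with a median of 0.07. The unadjusted p was under 0.05 for 1 higher (1.75% of all genes) and 3 lower in GASH/Sal (1.93% of all genes). Without the 2 arrays that stood apart these counts were 4 higher (3.58% of all genes) and 1 lower (2.89% of all genes). The higher one was Bdnf, the neurotrophin that supports synapse growth. Its signal was 5.10 to 5.21 in naïve Syrian (median 5.16), 5.03 to 5.27 in stimulated Syrian (median 5.18), 4.85 to 5.11 in naïve GASH/Sal (median 4.96) and 5.03 to 5.32 in stimulated GASH/Sal animals (median 5.18). The stimulated groups covered nearly the same range, and the naïve GASH/Sal arrays were the low ones. The difference was 0.20 (SE 0.10, unadjusted p 0.0454), which became 0.16 without the 2 arrays that stood apart, where the unadjusted p was 0.116.

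The 3 lower effectors were Dusp1, Plk2 and Plat. Dusp1, a phosphatase that switches off MAP kinases, had a signal of 5.11 to 5.66 in naïve Syrian (median 5.50), 5.50 to 6.03 in stimulated Syrian (median 5.67), 5.25 to 5.57 in naïve GASH/Sal (median 5.40) and 5.29 to 5.69 in stimulated GASH/Sal animals (median 5.35). The stimulated Syrian arrays were the high ones, and 5 of the 6 stimulated GASH/Sal arrays lay below all of them. The difference was -0.27 (SE 0.13, unadjusted p 0.0427), with -0.34 in series A and -0.19 in series B, and -0.31 without the 2 arrays that stood apart. Plk2, a kinase of synaptic scaling, differed by -0.29 (unadjusted p 0.0441), or -0.25 without those arrays (unadjusted p 0.0816). Plat, the tissue plasminogen activator, differed by -0.27 (unadjusted p 0.0281), most of it in series B (-0.46, against -0.08 in A), and by -0.20 without those arrays (unadjusted p 0.0916).

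The synaptic effectors most often read as activity markers lay close to 0. Arc, which governs the removal of AMPA receptors from the synapse, differed by 0.07 (95% interval -0.18 to 0.31), and Homer1, a postsynaptic scaffold, by 0.11 (-0.17 to 0.39). Both intervals exclude a difference of 1.5-fold in array signal. Upstream, of the 26 tested kinases and factors of the MAP kinase and cAMP pathways 10 lay above 0 with a median of -0.01, and 0 were at an unadjusted p under 0.05.

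None of the genes that the study followed up by other methods, Egr3 above included, passed adjustment. These were chosen by the study with the same tissue in view and are not independent of it. Npy, an inhibitory neuropeptide, differed by -0.003 (95% interval -0.25 to 0.25). Naïve GASH/Sal replicate 6 had an Npy signal of 7.28 where the other 5 animals of its group lay between 6.68 and 6.75, and without the 2 arrays that stood apart the difference was 0.15. Rgs2, which shortens G-protein signals, differed by 0.20 (95% interval -0.27 to 0.66), and its stimulated GASH/Sal signal spread from 4.47 to 6.03. Leaving out 1 array moved Rgs2 between 0.05 and 0.34. Ttr, the thyroid hormone carrier of the choroid plexus, differed by 0.09 (-0.17 to 0.35), with a dim signal at the 19.3rd percentile of all genes. Abcb1a, the drug efflux pump of the blood-brain barrier, differed by -0.004 (-0.32 to 0.32), the mean of 0.30 in series A and -0.30 in series B. The reference gene Actb, a cytoskeletal actin, differed by -0.09 (-0.29 to 0.12).

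Neuropeptides, which modulate the excitability of collicular circuits, had a median of 0.02 among 23 tested. At an unadjusted p under 0.05 there was 1 gene higher in GASH/Sal (1.75% of all genes) and 1 lower (1.93% of all genes). Vip (probe set 10367582), the precursor of vasoactive intestinal peptide, had a signal of 4.49 to 4.74 in naïve Syrian (median 4.66), 4.51 to 4.91 in stimulated Syrian (median 4.81), 4.65 to 4.97 in naïve GASH/Sal (median 4.73) and 4.31 to 4.76 in stimulated GASH/Sal animals (median 4.63). The medians went up in one strain and down in the other, with overlap throughout. The difference was -0.32 (SE 0.11, 95% interval -0.55 to -0.10, unadjusted p 0.00649), with -0.34 in series A and -0.31 in series B.

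Pdyn (probe set 10487613), the precursor of the dynorphin opioid peptides, ran the other way. Its signal was 4.69 to 5.21 in naïve Syrian (median 4.98), 4.74 to 5.10 in stimulated Syrian (median 4.87), 4.56 to 4.94 in naïve GASH/Sal (median 4.75) and 4.93 to 5.35 in stimulated GASH/Sal animals (median 4.98). The stimulated GASH/Sal arrays barely touched the naïve ones, while the Syrian groups covered each other. The difference was 0.32 (SE 0.13, unadjusted p 0.0177), with 0.26 in series A and 0.38 in series B. Without the 2 arrays that stood apart it was -0.33 for Vip and 0.31 for Pdyn.

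**Figure D4:**
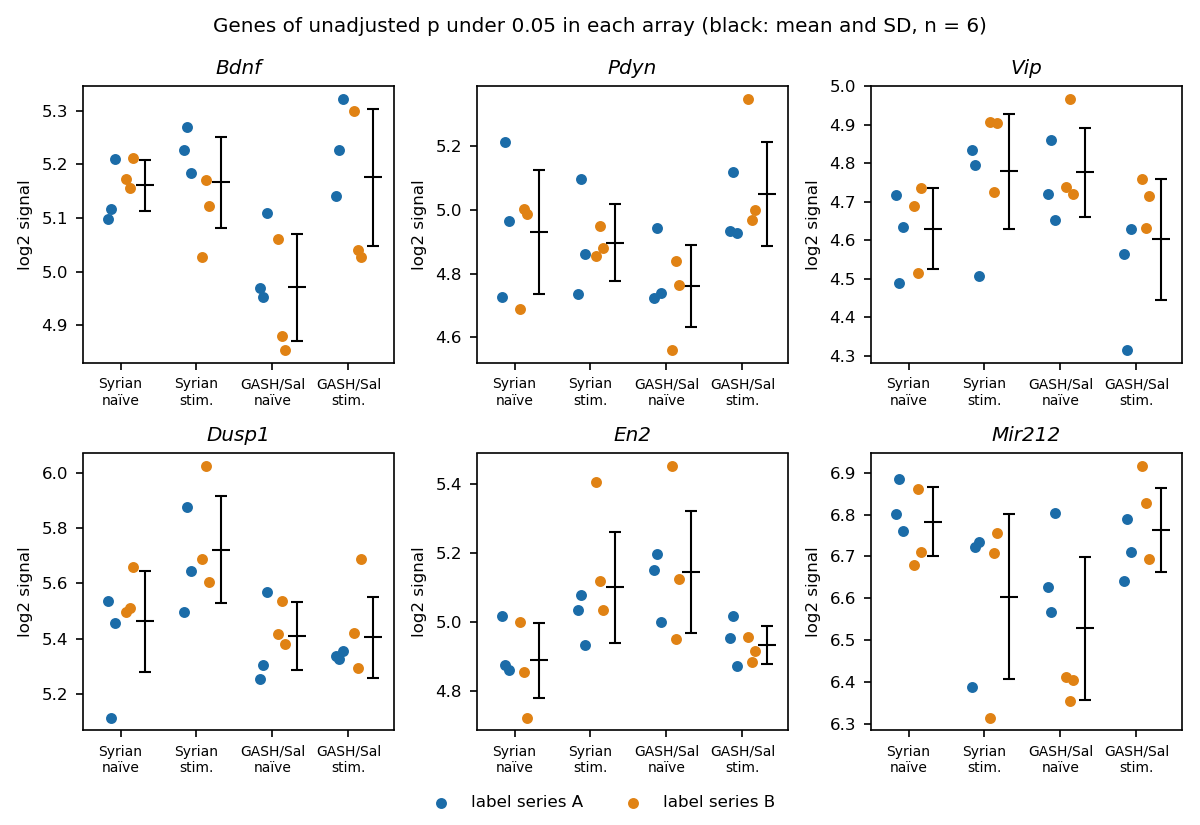
Log2 signal (y axis) of Bdnf, Pdyn, Vip, Dusp1, En2 and Mir212 in each of the 24 arrays by group (x axis), with label series A in blue, series B in orange, and the mean and SD of 6 arrays in black. All 6 genes had an unadjusted p under 0.05 and an adjusted p of 1. For En2 the stimulated GASH/Sal arrays (4.87 to 5.02) lie below most naïve GASH/Sal arrays.

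No gene of inhibitory or excitatory transmission passed adjustment. Of 23 GABAergic genes 9 lay above 0 with a median of -0.04 and 0 at an unadjusted p under 0.05, among them, named after their values were seen, Gad2, an enzyme that makes GABA, at -0.22, and Gabra2, a GABA-A receptor subunit, at -0.25. Without the 2 arrays that stood apart these were -0.30 (unadjusted p 0.00871) and -0.40 (unadjusted p 0.00432), and 3 of the 23 were then at an unadjusted p under 0.05, all lower in GASH/Sal (2.89% of all genes). Of 7 glycinergic genes 2 lay above 0, and Glra4, a glycine receptor subunit, was at -0.31 (SE 0.12, unadjusted p 0.0169), with -0.50 in series A and -0.12 in series B. Without the 2 arrays that stood apart 6 of the 7 lay below 0, the median moved from -0.06 to -0.11, and Glra3, another glycine receptor subunit named after its value was seen, was at -0.62 (unadjusted p 0.0137) beside Glra4 at -0.35. The 28 glutamatergic genes had a median of -0.01, with 13 above 0 and 0 at an unadjusted p under 0.05. When the 2 arrays were left out 4 of the 28 were at that level, all lower in GASH/Sal (2.89% of all genes) and named after their values were seen, the AMPA receptor subunits Gria3 (-0.35) and Gria4 (-0.24), the kainate receptor subunit Grik2 (-0.26) and the metabotropic receptor Grm3 (-0.30).

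Ion channels behaved likewise. The 41 potassium and HCN channels had a median of -0.0002 with 20 above 0, and the 24 sodium and calcium channels a median of 0.02 with 13 above 0. Neither list had a member at an unadjusted p under 0.05 (0 of each). When the 2 arrays that stood apart were left out, the potassium and HCN list had 1 higher and 1 lower at that level. The sodium and calcium list then had 0 higher and 1 lower. Over all genes these shares were 3.58% higher and 2.89% lower. The 17 regulators of G-protein signalling had a median of -0.005, the 18 ABC transporters 0.01, the 20 inflammation and interferon genes -0.005 and the 18 genes of audiogenic and monogenic seizures -0.003, again with 0 members at that level over all 24 arrays. When the 2 arrays were left out, the ABC and inflammation lists each had 1 member at that level, higher in GASH/Sal (3.58% of all genes). The other lists still had 0. The median of the seizure genes was then -0.06, with 5 of 18 above 0, against 9 of 18 over all arrays.

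Hormonal and stress programmes were examined next. Of 23 glucocorticoid-responsive genes, which follow stress hormone release, 17 lay above 0 with a median of 0.06 and 0 at an unadjusted p under 0.05. Named after their values were seen, Klf9, a factor induced by the glucocorticoid receptor, was the highest at 0.24, and Sgk1, a kinase of the same pathway, the lowest at -0.15. Sgk1 was 0.30 in series A and -0.60 in series B. Of 19 circadian clock genes 12 lay above 0 with a median of 0.08, which was 0.01 without stimulated Syrian replicate 4 and 0.09, with 13 of 19 above 0, without both arrays that stood apart. Of 18 heat shock genes 7 lay above 0, and Hsf2, a heat shock transcription factor, was at -0.32 (unadjusted p 0.0292).

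Among genes with a signal above the median of all genes, those with the highest moderated t were Alyref2, Slc25a44, Qprt, Mir212 and Cdcp2. Alyref2, a close relative of the mRNA export factor Alyref, had a signal of 5.01 to 5.62 in naïve Syrian (median 5.26), 4.73 to 5.36 in stimulated Syrian (median 5.15), 4.63 to 5.11 in naïve GASH/Sal (median 5.02) and 5.20 to 5.67 in stimulated GASH/Sal animals (median 5.30). The stimulated GASH/Sal arrays all lay above the naïve ones. The difference was 0.61 (SE 0.16, 1.52-fold, 95% interval 1.22-fold to 1.90-fold, unadjusted p 0.000596). Probes of such close relatives can be shared, so the gene assignment is uncertain. Slc25a44, a mitochondrial carrier, differed by 0.50, Qprt, an enzyme of NAD synthesis, by 0.43, and Cdcp2, a CUB domain protein, by 0.40. For each, 0 of 6 stimulated Syrian arrays lay above the naïve Syrian mean. In GASH/Sal 5, 6 and 4 of 6 stimulated arrays lay above the naïve mean, in the same order. Median signals of Slc25a44 were 5.74 and 5.35 in naïve and stimulated Syrian animals, and 5.41 and 5.49 in GASH/Sal. They were 5.39, 5.01, 5.15 and 5.26 for Qprt and 5.33, 4.96, 4.96 and 5.02 for Cdcp2.

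Mir212, the gene of a microRNA induced by CREB, lies next to Mir132 in the genome and is transcribed with it. The array measures the precursor region and not the mature microRNA. The Mir212 signal was 6.68 to 6.88 in naïve Syrian (median 6.78), 6.32 to 6.75 in stimulated Syrian (median 6.71), 6.36 to 6.80 in naïve GASH/Sal (median 6.49) and 6.64 to 6.92 in stimulated GASH/Sal animals (median 6.75). The lowest array was stimulated Syrian replicate 4, the lowest naïve GASH/Sal array was replicate 5, and the stimulated groups overlapped. Naïve GASH/Sal arrays averaged 6.67 in series A and 6.39 in series B, and stimulated Syrian arrays 6.61 and 6.59. The median was lower in stimulated than in naïve Syrian animals and higher in stimulated than in naïve GASH/Sal animals. The difference was 0.41 (SE 0.12, unadjusted p 0.00183), which became 0.34 without the 2 arrays that stood apart. Mir132, looked up after the value of Mir212 was seen, differed by 0.12 (95% interval -0.17 to 0.40).

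The genes with the lowest moderated t were En2, Ccdc28b, Ccdc130, Mfsd6 and Ppp5c. En2 (probe set 10520368), a homeodomain factor that patterns the midbrain and cerebellum, had a signal of 4.72 to 5.02 in naïve Syrian (median 4.87), 4.93 to 5.40 in stimulated Syrian (median 5.06), 4.95 to 5.45 in naïve GASH/Sal (median 5.14) and 4.87 to 5.02 in stimulated GASH/Sal animals (median 4.94). Naïve GASH/Sal and stimulated Syrian arrays were the high ones. The difference was -0.42 (SE 0.12, 95% interval -0.66 to -0.19, unadjusted p 0.00104), with -0.26 in series A and -0.58 in series B, and -0.37 without the 2 arrays that stood apart. Ppp5c, a phosphatase of the glucocorticoid receptor complex, differed by -0.42. Mfsd6 differed by -0.35, Ccdc130 by -0.34 and Ccdc28b by -0.31.

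The 10 genes that reached 1.5-fold at an unadjusted p of at most 0.05 were looked up after their values were seen, and all but Alyref2 and Psme2 had a signal below the median of all genes. Klk1b24 (probe set 10552604), of the kallikrein family, had the highest difference of all genes, 0.70 (SE 0.17, unadjusted p 0.000229), and the lowest p, but its signal lay at the 25.5th percentile of all genes. The other 3 higher ones were 1700031F05Rik at 0.67, 4921509C19Rik at 0.63 and Alyref2. The 6 lower ones were 1600029O15Rik at -0.72, Olfr59 at -0.71, Ifna12 at -0.66, Mrpl51 at -0.63, Olfr776 at -0.59 and Psme2 at -0.59. Among them are olfactory receptors, an interferon, a mitochondrial ribosomal protein and a proteasome activator subunit. Of these, Ifna12 was -0.08 in series A but -1.23 in series B.

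Ribosomal proteins and the respiratory chain are constitutive programmes of the cell. Of 54 tested cytosolic ribosomal protein genes 43 lay below 0 with a median of -0.10, beside 51.0% of all genes below 0, and 2 were at an unadjusted p under 0.05, both lower (1.93% of all genes), Rps25 (-0.30) and Rpl10 (-0.25). Of the 54, 25 were below 0 in both label series, beside 24.7% of all genes. The median was -0.05 without naïve GASH/Sal replicate 6 and -0.04 without both arrays that stood apart, when 36 of 54 lay below 0 and the unadjusted p was 0.0841 for Rps25 and 0.0654 for Rpl10. Ribosomal protein genes have many processed copies in the genome, and Rps25 and Rpl10 each had 6 probe sets, so their assignment is uncertain. The list's mean signal per array was 7.30 to 7.61 in naïve Syrian, 7.18 to 7.52 in stimulated Syrian, 7.20 to 7.58 in naïve GASH/Sal and 7.12 to 7.48 in stimulated GASH/Sal animals, so that all groups overlapped.

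Of 72 genes of oxidative phosphorylation, the respiratory chain and ATP synthase of mitochondria, 52 lay below 0 with a median of -0.06. The unadjusted p was under 0.05 for 3, all lower in GASH/Sal (1.93% of all genes), the complex I subunits Ndufb2 (-0.29) and Ndufb3 (-0.30) and the ATP synthase subunit Atp5g2 (-0.31). Ndufb2 and Ndufb3 had dim signals, at the 23.5th and 16.6th percentiles of all genes, and Atp5g2 had 3 probe sets. The list median was 0.001 in series A and -0.10 in series B. It was -0.004 without naïve GASH/Sal replicate 6 alone, and without both arrays that stood apart 32 of 72 lay below 0. Under that setting 2 members were higher (3.58% of all genes) and 1, Ndufb3, lower (2.89% of all genes) at an unadjusted p under 0.05. Ndufb2 (-0.21, unadjusted p 0.0584) and Atp5g2 (-0.19, unadjusted p 0.113) were no longer at that level. The list median stayed below 0 in each of the 24 fits that left out 1 array, and was 0.0065 without both arrays that stood apart.

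**Figure D5:**
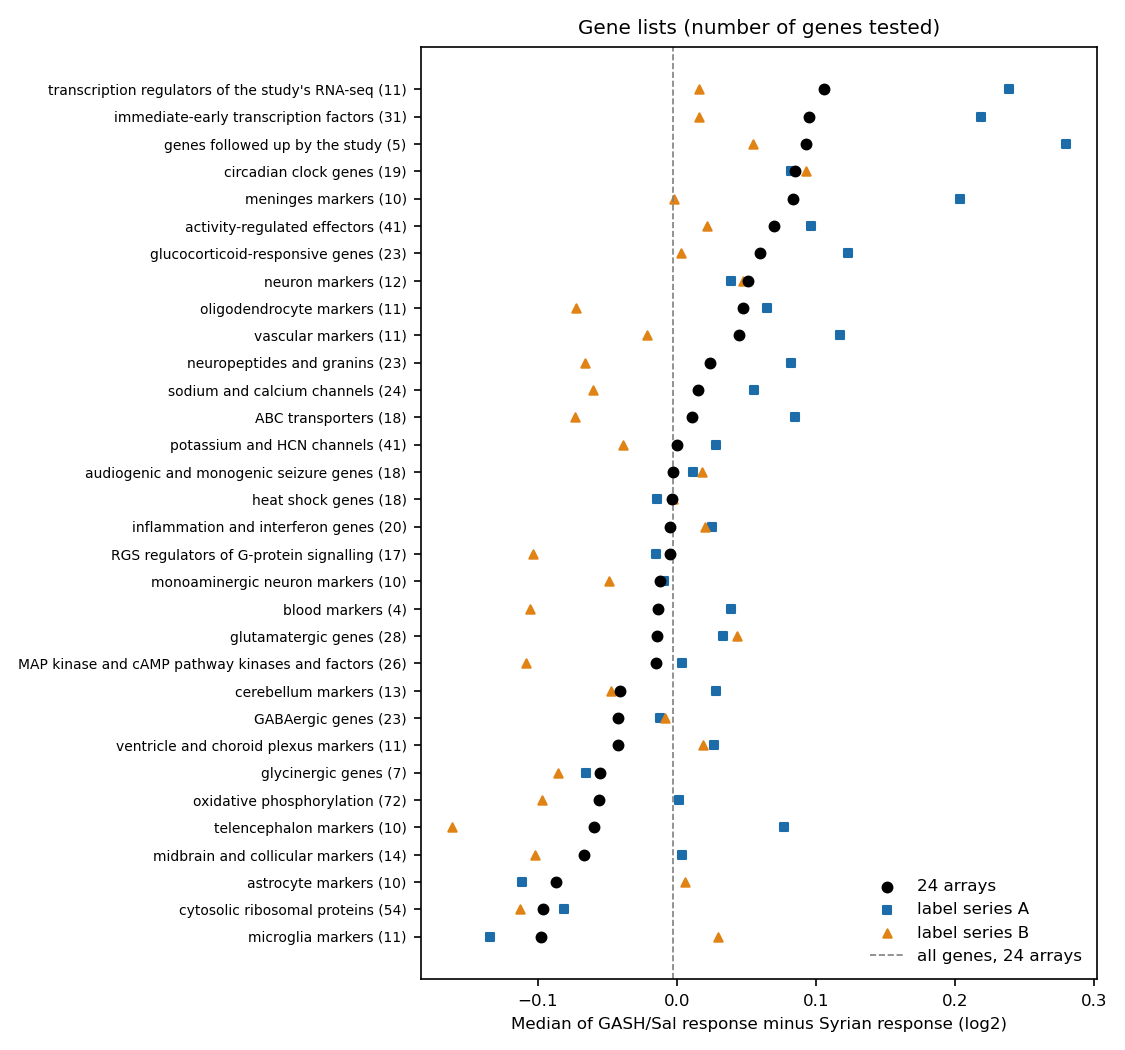
Median difference of responses (log2, x axis) of 32 gene lists (y axis, number of genes tested in parentheses) over 24 arrays (black circles), in label series A (blue squares) and in label series B (orange triangles), with the dashed line at the median of all genes (-0.003). The immediate-early transcription factors lie at 0.10 over 24 arrays, 0.22 in A and 0.02 in B, and the ribosomal proteins lie below 0 in both.

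Markers of the cells and neighbouring regions that a dissected IC can hold did not pass adjustment in any case. The medians were 0.05 for 12 neuron markers, -0.09 for 10 astrocyte, 0.05 for 11 oligodendrocyte, -0.10 for 11 microglia and 0.04 for 11 vascular markers. They were -0.04 for 11 ventricle and choroid plexus, 0.08 for 10 meninges, -0.01 for 4 blood and -0.01 for 10 monoaminergic neuron markers. For tissue regions they were -0.07 for 14 midbrain and collicular, -0.04 for 13 cerebellum and -0.06 for 10 telencephalon markers. The neuron markers were at -0.06 and the telencephalon markers at 0.08 without the 2 arrays that stood apart. The marker genes at an unadjusted p under 0.05 were Nefh, a neurofilament of large neurons (0.26), Aif1 of microglia (0.42), Cbln3 of cerebellar granule cells (0.32), En2, and S100a8 of neutrophils (-0.23). Aif1 was the 1 such member of a list in which 7 of 11 lay below 0. Cbln3 and En2 (-0.42) had opposite signs within the cerebellum list, in which 8 of 13 lay below 0. Without the 2 arrays that stood apart 5 of these 13 lay below 0. Aif1 without the 2 arrays was 0.29 (unadjusted p 0.112) and S100a8 -0.16 (unadjusted p 0.129).

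Of the meninges markers 8 of 10 lay above 0, with a median of 0.20 in series A and -0.002 in series B, and 0.18 without the 2 arrays that stood apart. Their mean signal per array ran from 4.65 to 5.10 in naïve Syrian, 4.66 to 5.01 in stimulated Syrian, 4.55 to 4.93 in naïve GASH/Sal and 4.79 to 4.96 in stimulated GASH/Sal animals. The midbrain and collicular markers had means of 5.74 to 5.92, 5.79 to 6.06, 5.76 to 6.11 and 5.77 to 5.94 in the same order, and the neuron markers 7.90 to 8.08, 7.91 to 8.01, 7.86 to 8.22 and 7.95 to 8.16. All of these ranges overlapped between groups. The part of tissue composition in the differences of single genes was not tested.

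The label series are separate sets of 12 animals, 3 per group, and so give the difference of responses from animals that are not shared. Across all genes the difference in series A and that in series B had a Pearson r of -0.03 and a Spearman rho of -0.02, a description over genes, which are not independent replicates, and 48.2% of genes had the same sign. Among genes above the median signal r was -0.09. Without the 2 arrays that stood apart, both of series B, r over all genes was 0.16. In series A alone 1086 genes (5.45%) were at an unadjusted p under 0.05 and in series B alone 629 (3.15%), with 0 at an adjusted p under 0.05 in either. The 39 genes on both lists had the same direction in 19 cases and the opposite direction in 20. The 19 made up 1.75% of the series A list and 3.02% of the series B list, and Alyref2, Klk1b24 and Qprt were among them.

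A direct test of series A minus series B found 0 of 19938 genes at an adjusted p under 0.05 by limma, with 783 (3.93%) at an unadjusted p under 0.05. The difference between the series for Egr4 was -0.60, with an adjusted limma p of 0.991. That for Sgk1 was 0.89 and that for Abcb1a 0.60, with the same adjusted p. The series were therefore not shown to differ for any gene, and the difference of responses was not shown to be shared by them.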

How the data were processed

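RNA from the inferior colliculus of 24 hamsters was measured on mouse whole-transcript arrays. The authors deposited log2 signals per probe set, made by RMA (background correction, normalisation between arrays, summary of probes), a step named in the submitters' processing notes with no version given. The table held 35556 probe sets with values from 1.20 to 14.3, and 0 columns were left out. There is no read depth, and precision is set by the number of arrays. The platform annotation gave 1 symbol for 21789 probe sets, several for 1621 and none for 12146. Probe sets with 1 symbol were used. Where a gene had more than 1, as 999 did, the probe set of highest mean was taken. Dim genes were kept.

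The difference of responses was fitted with lmFit and eBayes of limma (version 3.58.1, R version 4.3.3) on all 24 arrays, with the 4 groups and label series as terms and 19 residual degrees of freedom. The sources used here do not say what the label series stand for. Tests were two-sided, with Benjamini-Hochberg adjustment over 19938 genes. Intervals are 95% intervals from moderated standard errors. The labels call the arrays biological replicates, so that p-values reflect the spread between animals. The labels' protocol text and the design text differ on whether naïve animals heard the sound, and the sample titles and exposure labels were followed. The script was tested on simulated data.

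Of 687 members of 33 gene lists 609 were tested. Lists are described by counts and medians, with no test. The genes named were 20 genes fixed by name, list members at an unadjusted p under 0.05, and the 5 highest and 5 lowest by moderated t above the median signal, 47 in all. Other genes in the text were named after their values were seen. Genes of 2-fold difference would have been named, and there were none. The members, lists and rules were chosen with earlier results of these data known. The SAM test that the study's methods name was not run. Alternatives were other normalisations, a replicate block, array weights, each label series alone, brighter genes, and leaving out arrays.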

Additional observations from a re-analysis of the deposited data

Results flagged for a closer look

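In 188 groups of 6 arrays, 1 for each of the 47 named genes and 4 groups, 21 held an array whose gap to the nearest other array, divided by the range of the group, was above Dixon's critical value of 0.625. Chance flags about 1 in 20 groups.

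Stimulated Syrian replicate 2 was the high array for Egr2 (log2 signal 6.42, the others at most 5.46), Fos (7.00, at most 6.51), Fosb (6.08, at most 5.38) and Npas4 (6.33, at most 5.44). This array had a median correlation with the rest inside the range of the 22 unexceptional arrays. Without it the difference of responses was 0.64 for Egr2, 0.29 for Fos, 0.45 for Fosb and 0.48 for Npas4. The lowest values when 1 array was left out, each without a stimulated GASH/Sal array, were 0.35 for Egr2, 0.12 for Fos, 0.21 for Fosb and 0.19 for Npas4. Stimulated GASH/Sal replicate 4 was high for Egr4 (6.54, the others at most 6.13) and Egr1 (5.85, at most 5.16), and without it the differences were 0.38 and -0.02.

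Naïve GASH/Sal replicate 6, which stood apart over the genes tested, was high for Npy (7.28), Actb (9.43), Egr1 (5.44), Atp5g2 (7.91) and Plk2 (5.91). Stimulated Syrian replicate 4, which also stood apart, was high for Ccdc130 (6.03) and Ppp5c (7.28). Naïve GASH/Sal replicate 2 was low for Abcb1a (4.42) and Alyref2 (4.63). Dusp1 was low in naïve Syrian replicate 2 (5.11) and high in stimulated GASH/Sal replicate 6 (5.69). Naïve Syrian replicate 5 was high for Jun (5.70) and low for Slc25a44 (5.35), naïve Syrian replicate 6 was low for Qprt (4.97), and stimulated GASH/Sal replicate 5 was low for S100a8 (3.47).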

How the results depend on the processing

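No gene passed an adjusted p of 0.05 in any of 12 other settings or in 24 fits that each left out 1 array (0 genes, limma), and the lowest adjusted p of a named gene in any of them was 0.744. No pairing of animals by replicate number was seen. The mean correlation of same-numbered arrays, as deviations from the mean of their group within a label series, ran from -0.07 to 0.01. With the replicate number as a block 683 genes were at an unadjusted p under 0.05, against 734. That count was 1162 with array weights, 259 among genes above the median signal and 1290 without the 2 arrays that stood apart, an alternative chosen after seeing the data. Leaving out 1 array gave 619 to 958. The 10 genes of at least 1.5-fold were 38 in series A, 99 in series B, 2 among the brighter genes, 20 without the 2 arrays, and 5 (without stimulated Syrian replicate 4) to 14 when 1 array was left out. The 0 genes of at least 2-fold were 3 in series A, 2 in series B and 1 without the 2 arrays. Each series alone has 3 arrays per group. Centring arrays on their median moved the median of all genes to -0.01 (46.4% above 0) and quantile normalisation to -0.001 (49.8%). The cause of the changes below was not tested.

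List medians moved as follows in series A: immediate-early factors 0.219, glucocorticoid-responsive genes 0.123, potassium and HCN channels 0.028, neuropeptides 0.082, ABC transporters 0.085, vascular markers 0.117, telencephalon markers 0.077, followed-up genes 0.280, Actb as the reference gene -0.195. In series B they were 0.022 for effectors, -0.108 for MAP kinase and cAMP genes, 0.0027 for glucocorticoid-responsive genes, -0.038 for potassium and HCN channels, -0.060 for sodium and calcium channels, -0.066 for neuropeptides, -0.103 for RGS genes, -0.074 for ABC transporters, 0.0055 for astrocyte, -0.072 for oligodendrocyte, 0.030 for microglia, -0.021 for vascular, -0.106 for blood and -0.162 for telencephalon markers, and 0.020 for Actb. With array weights they were 0.100 for neuropeptides, 0.066 for ABC transporters, -0.014 for neuron and 0.054 for telencephalon markers. Among brighter genes they were 0.115 for glucocorticoid-responsive genes, -0.024 for microglia, 0.149 for choroid plexus and -0.123 for monoaminergic markers. Without the 2 arrays they were 0.092 for neuropeptides, 0.082 for ABC transporters, -0.064 for neuron, 0.079 for telencephalon and 0.0083 for midbrain markers. Leaving out 1 array gave 0.0080 to 0.095 for clock genes, lowest without stimulated Syrian replicate 4, -0.016 to 0.094 for neuron markers, lowest without naïve GASH/Sal replicate 6, and -0.111 to 0.037 for telencephalon markers, highest without stimulated Syrian replicate 4.

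Signs turned for the following genes, none of them called. Npy was 0.082 in series A, 0.110 with array weights, 0.145 without the 2 arrays and -0.040 to 0.087 when 1 array was left out. Abcb1a was 0.297, 0.131, 0.095 and -0.104 to 0.074 in the same order. Ttr was -0.124 in series A, and in series B Actb was 0.020, Egr1 -0.028, Junb -0.084, Nr4a1 -0.041, Nr4a3 -0.052 and Arc -0.075. Nr4a1 was -0.019 without the 2 arrays, and Jun was -0.00034 after quantile normalisation. Leaving out 1 array gave -0.018 to 0.207 for Egr1, -0.066 to 0.146 for Jun, -0.030 to 0.164 for Nr4a1 and -0.00013 to 0.100 for Nr4a2.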
